A study of Mus musculus with 2 samples.

Results

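RNA of 6 adenylyl cyclase genes and 4 genes of protein kinase A (PKA) subunits was measured in the hippocampus of 14-day-old mice: Adcy1, Adcy2, Adcy3, Adcy5, Adcy8 and Adcy9, and Prkaca, Prkacb, Prkar1b and Prkar2b. They were taken by gene symbol, and all 10 were present in both gene tables among 55536 genes. Their 43 annotated transcripts were taken from a pair of transcript tables for each library. The samples were hippocampus, called a layer of it in the tissue label, from male B6CASTF1/J mice, the F1 hybrids of a C57BL/6J by CAST/EiJ cross. There was a single group of 2 libraries with no treatment in the labels, numbered as biological replicates 1 and 2, so no contrast between conditions could be made. Each label lists 3 males without stating if their RNA was pooled. Total RNA (300 ng per library, with ERCC spike-ins, synthetic RNAs added in known amounts) went into stranded libraries with reduced ribosomal RNA. Values below describe levels within this tissue, the make-up of each gene's transcripts and the difference between the 2 libraries.

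Adenylyl cyclases are membrane enzymes that make the second messenger cAMP, and their isoforms differ in how G proteins and calcium act on them. PKA at rest is a complex of catalytic and regulatory subunits. When cAMP binds the regulatory subunits, the catalytic subunits become active and phosphorylate ion channels, receptors and transcription factors such as CREB. In the hippocampus this pathway is known for its part in lasting synaptic potentiation and memory, and the calcium-stimulated cyclases encoded by Adcy1 and Adcy8 link it to synaptic calcium entry.

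The catalytic subunit genes have alternative first coding exons, and several of them were in use within Prkacb. Prkaca lies on chromosome 8 (83972993 to 83996443, + strand, mm10) and Prkacb on chromosome 3 (146729574 to 146812990, − strand). The first 60 coding bases of each gene's leading transcript and of some others are printed 5′ to 3′ from the GENCODE M21 transcripts. The bases of the first coding exon are in capitals.
Prkaca-201: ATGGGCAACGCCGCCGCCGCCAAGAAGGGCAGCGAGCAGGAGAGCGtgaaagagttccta
Prkaca-202: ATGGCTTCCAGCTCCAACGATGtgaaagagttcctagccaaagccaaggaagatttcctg
Prkacb-202: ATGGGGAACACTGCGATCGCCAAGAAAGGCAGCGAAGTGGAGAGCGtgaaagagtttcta
Prkacb-203: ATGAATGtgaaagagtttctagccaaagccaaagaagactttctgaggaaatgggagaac
Prkacb-204: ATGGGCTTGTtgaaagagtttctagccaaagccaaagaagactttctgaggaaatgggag
The first coding exon holds 46 coding bases in Prkaca-201 and in Prkacb-202, 22 in Prkaca-202, 7 in Prkacb-203 and 10 in Prkacb-204. Beyond it the transcripts of a gene are the same: counted back from the stop codon, Prkacb-203 shares 1011 bases with Prkacb-202, Prkacb-204 shares 1010, and Prkaca-202 shares 1011 with Prkaca-201. Between the genes, the coding sequences of Prkaca-201 and Prkacb-202 have the same length of 1056 bases and are identical at 848 positions, or 80.3%. In the first coding exon 36 of 46 bases are identical.

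The regulatory subunits hold the catalytic subunit through a short inhibitor site that resembles a PKA substrate. In textbook accounts, the type II subunits have a serine there that the catalytic subunit phosphorylates, and the type I subunits have a residue that cannot be phosphorylated. The coding bases around that site are printed for all 4 regulatory genes, since their RNA levels differed by type, with the 5 codons of the site in capitals.
Prkar1a-203: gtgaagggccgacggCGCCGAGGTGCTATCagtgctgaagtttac
Prkar1b-201: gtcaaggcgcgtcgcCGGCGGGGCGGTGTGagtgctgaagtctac
Prkar2a-201: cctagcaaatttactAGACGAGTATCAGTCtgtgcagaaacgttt
Prkar2b-202: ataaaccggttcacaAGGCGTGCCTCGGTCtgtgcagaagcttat
The stretch shown is coding bases 271 to 315 in both type I transcripts, 265 to 309 in Prkar2a-201 and 310 to 354 in Prkar2b-202. The fourth codon, where the types part, is GCT in Prkar1a, GGT in Prkar1b, TCA in Prkar2a and TCG in Prkar2b.

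All 10 genes were detected in both libraries, with a TPM of at least 1 (TPM is a level scaled for transcript length and to a fixed total per library). Each also passed 5 TPM. Of the 10, 9 lay above 15.2 TPM, the median of 12924 detected protein-coding genes, and the median of the 10 mean levels was 32.1 TPM. Structural and mitochondrial ribosomal RNAs took 42.6% of the TPM in replicate 1 and 40.5% in replicate 2, so that less of the fixed total was left for other genes. The expected counts of all genes came to 29144892 and 31755578 in these libraries. Within the gene table, reads of the 10 genes were assigned with little doubt. The deposited posterior SD of the count was 0 for 9 of them in both libraries and at most 0.0108% of the count for Prkar1b. That SD does not measure differences between tables. In the kallisto-layout transcript table, summed per gene, each of the 10 had higher counts. Adcy1 had 24037 and 30249 there, against 21821 and 27609 in the gene table. All genes came to 29718379 and 32125103 in the kallisto-layout table.

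**Figure D1:**
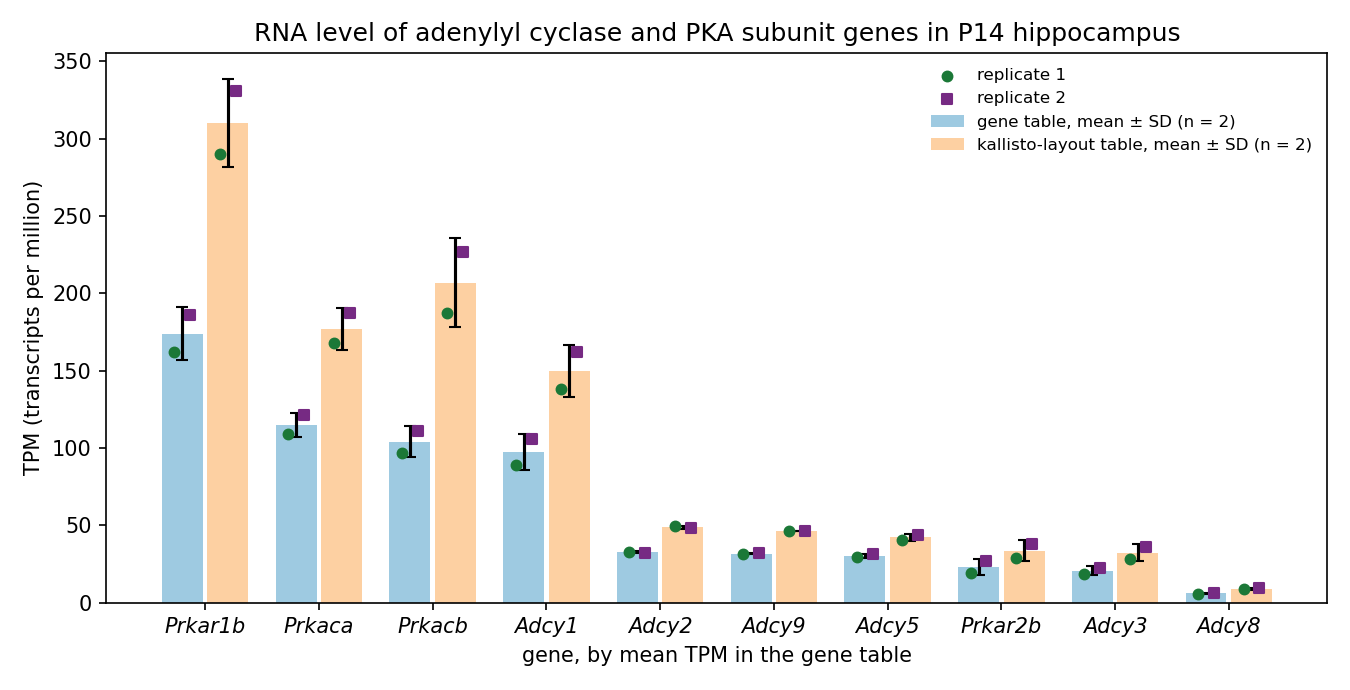
TPM of the 10 genes, in order of mean level in the gene table (blue) and in the kallisto-layout table summed per gene (orange); bars are means of 2 libraries with SD, points are the libraries. Prkar1b, Prkaca, Prkacb and Adcy1 stand above the other 6 genes in both tables, and Adcy8 is lowest.

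Among the cyclases, Adcy1 RNA was the most abundant and Adcy8 RNA the least abundant of the 6 members. Adcy1 (ENSMUSG00000020431.5, chromosome 11, 7063489 to 7178506, + strand, mm10), the calcium- and calmodulin-stimulated cyclase of brain, had a TPM of 89.0 in replicate 1 and 106 in replicate 2 (97.4 ± 11.9 SD, n = 2). Adcy8 (ENSMUSG00000022376.8, chromosome 15, 64697084 to 64922296, − strand), the other calmodulin-stimulated cyclase, had 5.81 and 6.26 TPM (6.04 ± 0.318, n = 2). Adcy3 (ENSMUSG00000020654.15, chromosome 12, 4133103 to 4213525, + strand), known for olfactory signalling and for its place in neuronal primary cilia, had 18.8 and 22.5 TPM (20.7 ± 2.65, n = 2). On the TPM scale Adcy1 exceeded Adcy8 by a log2 ratio of 4.01 ± 0.10 (SD, n = 2), which is 16.1-fold, and Adcy3 by 2.24 ± 0.0098, or 4.72-fold. Both gaps passed the rule used for pairs of genes, which asks for the same sign in both libraries and a mean log2 TPM ratio above 0.5 and above 2 SD.

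The other 3 cyclases lay close together near 30 TPM. Adcy2 (ENSMUSG00000021536.7, chromosome 13, 68620043 to 68999541, − strand), which G protein beta-gamma dimers stimulate together with Gs, had 33.0 and 32.2 TPM (32.6 ± 0.544, n = 2). Adcy9 (ENSMUSG00000005580.11, chromosome 16, 4287529 to 4420498, − strand), a widely expressed cyclase, had 31.3 and 31.9 TPM (31.6 ± 0.445, n = 2). Adcy5 (ENSMUSG00000022840.9, chromosome 16, 35154877 to 35305738, + strand), a calcium-inhibited cyclase best known from striatum, had 29.3 and 31.2 TPM (30.2 ± 1.36, n = 2). The order of these 3 was the same in both libraries, but neighbours differed by log2 TPM ratios of only 0.05 ± 0.044 and 0.06 ± 0.044, short of the rule. Markers of striatal projection neurons, where Adcy5 is best known, were present: their 5 genes summed to 31.9 TPM in replicate 1 and 32.1 in replicate 2, from 14.1 and 12.9 TPM for Ppp1r1b down to 1.01 and 1.58 TPM for the dopamine receptor gene Drd1. Penk had 9.30 and 9.80 TPM, Rgs9 6.11 and 6.18, and the adenosine receptor gene Adora2a 1.36 and 1.68, so that all 5 were detected. Their part in the Adcy5 level was not tested. In a bulk sample, fewer cells of a type and less RNA per cell cannot be told apart.

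Set beside the 4 cyclase genes outside the group, Adcy1 alone held 40.5% ± 2.38 (SD, n = 2) of the summed cyclase TPM of 240 ± 15.2. Adcy2 held 13.6%, Adcy9 13.2%, Adcy5 12.6%, Adcy3 8.58% and Adcy8 2.51%. Adcy6, the calcium-inhibited relative of Adcy5, held 7.65% with 19.0 and 17.6 TPM. Adcy5 exceeded Adcy6 by a log2 TPM ratio of 0.72 ± 0.14 (n = 2) in the gene table and by 0.50 ± 0.049 in the kallisto-layout table, at the limit of the rule. Where transcripts with a complete coding sequence alone were counted, a choice made after the data were seen, the ratio was 1.44 ± 0.17 in the RSEM-layout table and 1.12 ± 0.19 in the kallisto-layout table. Adcy4 at 1.71 ± 0.120 TPM and Adcy7, the relative of Adcy2, at 1.49 ± 0.0566 TPM were low. Adcy2 exceeded Adcy7 by a log2 TPM ratio of 4.45 ± 0.031 (21.9-fold). Adcy10, the soluble cyclase, had 3 and 4 counts, where a count of 0 allows up to 3.

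**Figure D2:**
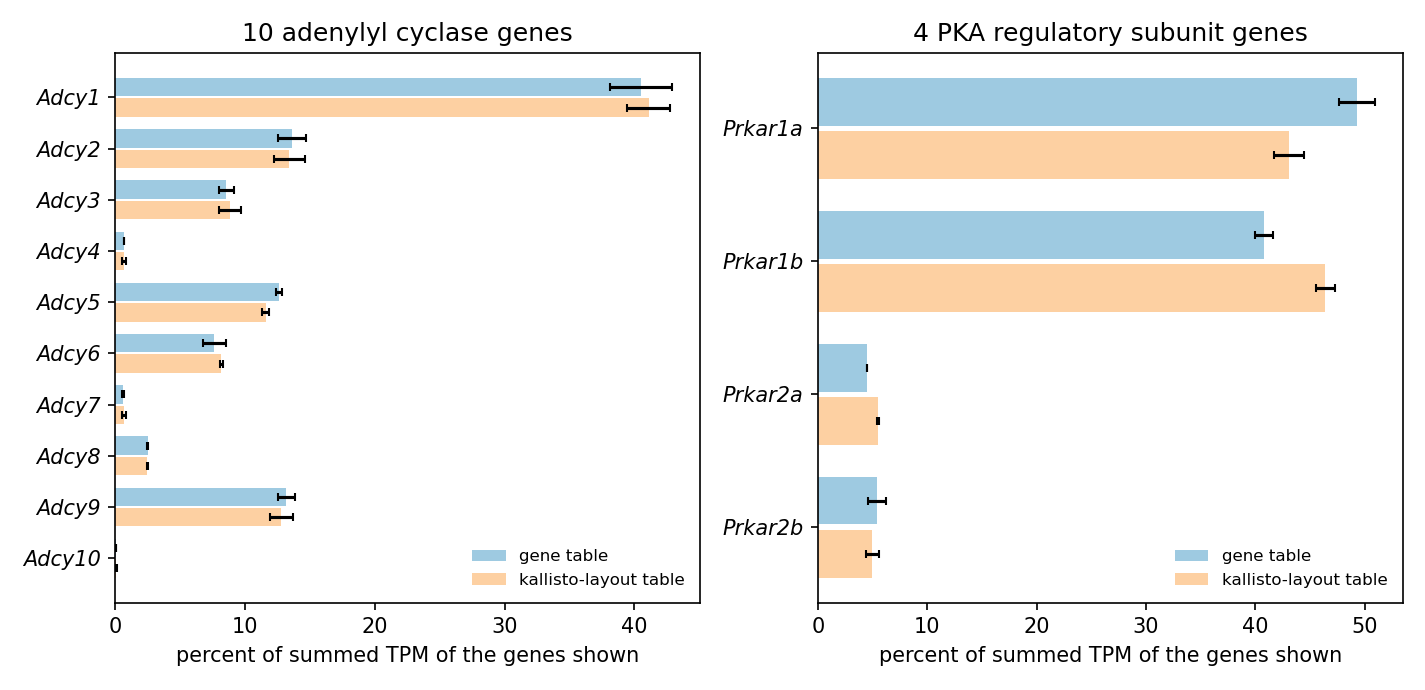
Percent of the summed TPM held by each adenylyl cyclase gene (left) and each PKA regulatory subunit gene (right), as means of 2 libraries with SD, in the gene table (blue) and the kallisto-layout table (orange). Adcy1 holds 40.5% of the cyclase TPM in the gene table, and the type I genes Prkar1a and Prkar1b hold 49.3% and 40.8% of the regulatory TPM.

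The PKA subunit genes were led by the type I regulatory subunits. Prkar1b (ENSMUSG00000025855.13, chromosome 5, 139017306 to 139150001, − strand), the type I regulatory subunit enriched in neurons, had 162 TPM in replicate 1 and 186 in replicate 2 (174 ± 17.1 SD, n = 2). Prkar2b (ENSMUSG00000002997.15, chromosome 12, 31958476 to 32061296, − strand), the type II subunit that anchoring proteins hold at membranes and the cytoskeleton, had 19.4 and 26.8 TPM (23.1 ± 5.28, n = 2). Replicate 2 was above replicate 1 for both, and Prkar2b had the widest spread of the 10 genes, with an SD of 22.9% of its mean TPM. Prkar1b exceeded Prkar2b by a log2 TPM ratio of 2.93 ± 0.19 (7.63-fold), and the ubiquitous Prkar1a (210 ± 9.60 TPM) exceeded Prkar2a (19.2 ± 1.37 TPM) by 3.45 ± 0.037 (10.9-fold). Together the type I genes had 9.72 times the TPM of the type II genes in replicate 1 and 8.58 times in replicate 2.

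Within each type, the 2 genes did not separate on the TPM scale. The log2 TPM ratio of Prkar1b to Prkar1a was -0.27 ± 0.076 (n = 2) in the gene table and 0.10 ± 0.073 in the kallisto-layout table. That of Prkar2b to Prkar2a was 0.25 ± 0.23 in the first and -0.15 ± 0.20 in the second. Neither passed the rule in either table, and both changed sign between tables. Counting complete coding transcripts alone, a choice made after the data were seen, both kept their sign across tables and neither passed. Prkar1b to Prkar1a was then -0.31 ± 0.091 in the RSEM-layout table and -0.29 ± 0.10 in the kallisto-layout table. Prkar2b to Prkar2a was 0.37 ± 0.27 in the first and 0.38 ± 0.20 in the second. Without length correction, the log2 ratio of counts scaled to the library was -0.60 ± 0.069 for Prkar1b to Prkar1a and -0.55 ± 0.18 for Prkar2b to Prkar2a, and both passed.

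The catalytic subunit genes had nearly equal TPM in the gene table. Prkaca (ENSMUSG00000005469.10), the broadly expressed catalytic subunit, had 109 TPM in replicate 1 and 121 in replicate 2 (115 ± 7.83, n = 2). Prkacb (ENSMUSG00000005034.15), the catalytic subunit enriched in brain, had 96.9 and 111 TPM (104 ± 9.98, n = 2). The log2 TPM ratio of Prkaca to Prkacb was 0.15 ± 0.040, short of the rule, and in the kallisto-layout table it was -0.22 ± 0.089, with Prkacb the higher in both libraries. Counting complete coding transcripts alone, a choice made after the data were seen, gave Prkaca the higher level in both tables, with 0.47 ± 0.017 in the RSEM-layout table and 0.61 ± 0.021 in the kallisto-layout table. The last of these passed the rule. On the TPM scale Prkaca was thus the higher in the gene table and, with complete coding transcripts, in the RSEM-layout table. In the kallisto-layout table the sign depended on the transcripts counted. Without length correction, the log2 ratio of counts scaled to the library was -0.51 ± 0.017 in the gene table. That passed the rule with Prkacb the higher.

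Summed over genes, catalytic subunit RNA came to 0.512 times regulatory subunit RNA in replicate 1 and 0.515 times in replicate 2 on the TPM scale (log2 ratio -0.96 ± 0.0044, n = 2). In the kallisto-layout table the ratio was 0.559 in replicate 1 and 0.588 in replicate 2, with a mean of 0.573 taken on the log2 scale. In the order of mean TPM, Prkar1b was followed by Prkaca, Prkacb, Adcy1, Adcy2, Adcy9, Adcy5, Prkar2b, Adcy3 and Adcy8. Of the 9 neighbouring pairs in that order, 3 passed the rule: Prkar1b over Prkaca by 0.60 ± 0.044, Adcy1 over Adcy2 by 1.57 ± 0.20 and Adcy3 over Adcy8 by 1.77 ± 0.11, all as log2 TPM ratios. The other 6 pairs of neighbours did not differ beyond the rule. These gaps divide the 10 genes into Prkar1b at the top, then Prkaca, Prkacb and Adcy1, then 5 genes between 20.7 and 32.6 TPM, and Adcy8 at the bottom. Within these groups only neighbours were compared, so a shared group does not mean equal levels. In the group of 5, Adcy2 had 33.0 and 32.2 TPM and Adcy3 had 18.8 and 22.5. With complete coding transcripts alone, Prkacb came below Adcy1 in both tables. In the kallisto-layout table Prkar1b, at 235 TPM, then no longer passed the rule over Prkaca, at 177 TPM, and 2 neighbouring pairs were left.

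Transcript tables showed that most of the genes gave RNA with a single main coding sequence. A single transcript held over 50% of the gene's TPM in 9 of 10 genes in the RSEM-layout table and in 7 of 10 in the kallisto-layout table. In the RSEM-layout table the replicates shared their leading transcript for all 10 genes. In the kallisto-layout table they did not for Adcy3, led by Adcy3-202 (31.9%) in replicate 1 and Adcy3-201 (27.8%) in replicate 2, or for Adcy9, led by Adcy9-201 (48.2%) and then Adcy9-203 (47.8%). By mean share, the tables had the same leading transcript for 8 genes. Where transcripts with an identical coding sequence were joined, the coding sequence of the transcript that led by mean share was the same in both tables for all 10. Of the 43 transcripts, 32 were annotated as protein-coding, 24 had a complete coding sequence and 8 had 0 counts in both libraries in the RSEM-layout table. Some of those 8 had a share in the kallisto-layout table, among them Prkacb-207 at 9.88% ± 1.60 of its gene's TPM.

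**Figure D3:**
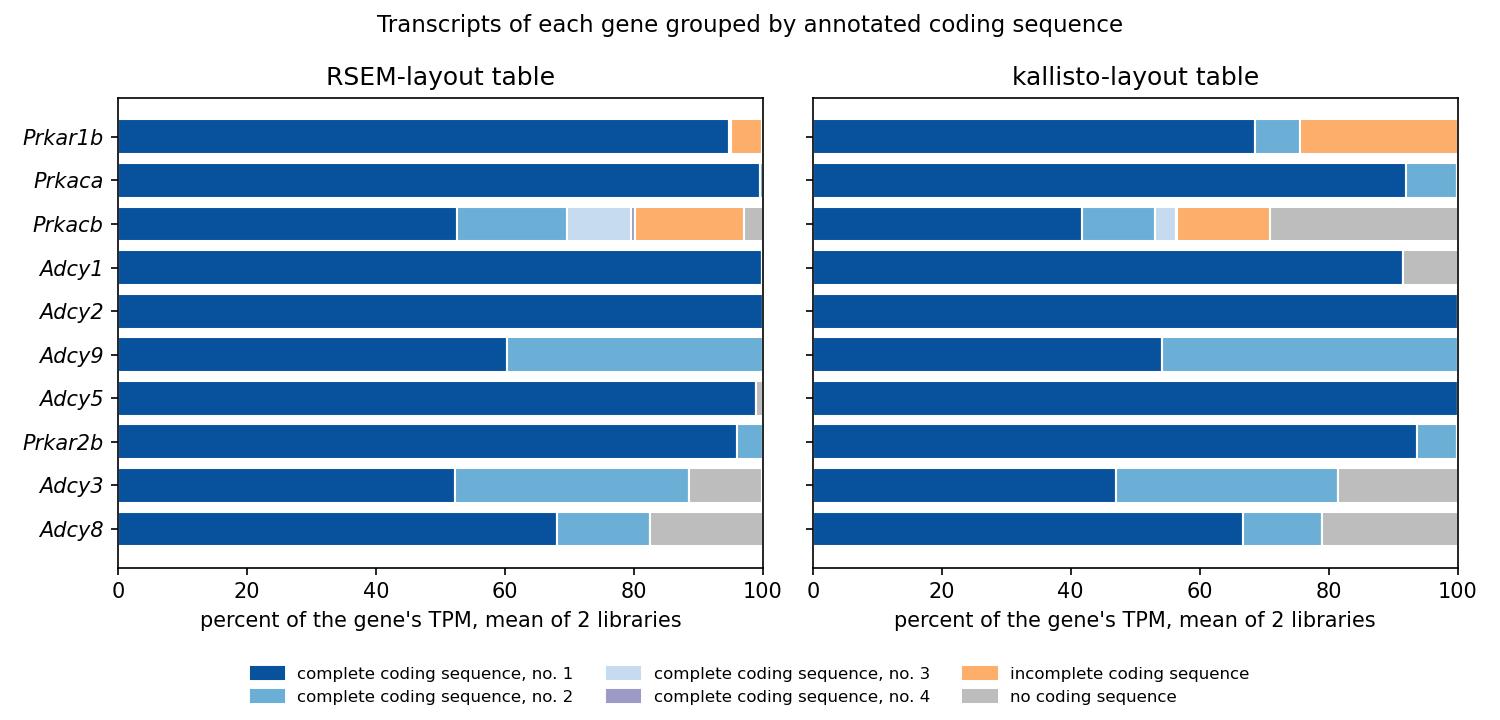
Percent of each gene's TPM by annotated coding sequence, as the mean of 2 libraries, in the RSEM-layout table (left) and the kallisto-layout table (right); blues and violet are different complete coding sequences, orange incomplete ones and grey transcripts with none. Prkacb shows the most parts, and its grey part is 2.94% on the left and 29.1% on the right.

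Prkacb RNA was divided over several first exons. Prkacb-202, whose first coding exon resembles that of Prkaca-201, held 52.4% of the gene's TPM in replicate 1 and 52.9% in replicate 2 in the RSEM-layout table. Prkacb-203 held 16.9% and 17.0%, and Prkacb-204 held 11.1% and 8.80%. The kallisto-layout table kept this order at 41.8% ± 0.602, 11.3% ± 1.95 and 3.21% ± 1.89 (n = 2). The transcripts with the short first coding exons printed above were thus present beside the leading form in both libraries and both tables.

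The tables parted on the incomplete transcripts of Prkacb. Prkacb-208, a 493-base model with an incomplete coding sequence, took 117 of 6770 counts of the gene in replicate 1 and 176 of 8089 in replicate 2, yet 15.1% and 18.7% of its TPM, because TPM divides by length. In the kallisto-layout table it had 0% and 9.37% of the TPM. Prkacb-205, a 919-base retained-intron transcript, held 2.33% ± 1.21 of the TPM in the RSEM-layout table and 28.5% ± 0.669 in the kallisto-layout table. Prkaca had no such part: Prkaca-201 held 99.6% ± 0.297 of its TPM in the first table and 92.0% ± 5.06 in the second, with Prkaca-202 making up the rest. In the first table Prkaca-202 had only 18.5 counts in replicate 1 and 7.58 in replicate 2. Their posterior SDs were 53.7% and 126% of the count.

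Prkar2b-202 and Prkar2b-201 encode the same 1251-base coding sequence, with 1913 and 253 bases of 3′ UTR, and together they held 96.0% ± 0.863 of the gene's TPM. The shorter Prkar2b-201 held 37.5% in replicate 1 and 44.9% in replicate 2 in the RSEM-layout table, and 32.2% and 39.4% in the kallisto-layout table, higher in replicate 2 in both. Its counts were 228 and 403, with posterior SDs of 10.4% and 7.20% of the count. The log2 ratio of replicate 2 to replicate 1 for Prkar2b was 0.47 on the TPM scale and 0.34 on the TMM-scaled count scale described further on, while the mean transcript length used for the gene fell from 2724 to 2595 bases. Prkar1b-201 held 94.8% ± 1.73 of Prkar1b TPM in the RSEM-layout table and 52.9% ± 1.45 in the kallisto-layout table, which gave 24.5% ± 1.37 to the incomplete Prkar1b-204 and 15.6% ± 1.69 to Prkar1b-203, of the same coding sequence as Prkar1b-201.

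Among the cyclases, Adcy1, Adcy2 and Adcy5 had a single coding sequence. Adcy1-201, a transcript of 12259 bases of which 8791 are 3′ UTR, held 99.8% ± 0.0212 of Adcy1 TPM in the RSEM-layout table. In the kallisto-layout table it held 91.6% ± 0.368, and Adcy1-202, which has no coding sequence, held 8.43% ± 0.368. Adcy2-201, the sole transcript of its gene, held 100% in both tables. Adcy5-201 held 98.9% ± 1.53 in the RSEM-layout table and 100% in the kallisto-layout table. Adcy1 also had the most counts of the 10 genes, 21821 and 27609, over this long transcript. Without correction for length it would hold 62.6% of the cyclase counts in place of 40.5% of the TPM.

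Adcy8 and Adcy3 each had forms that differ by an internal stretch of coding sequence. Adcy8-202 lacks 90 coding bases present in Adcy8-201 (coding bases 2407 to 2496), and Adcy3-202 and Adcy3-207 lack 3 bases present in Adcy3-201 and Adcy3-204 (coding bases 2496 to 2498). Both stretches are printed in capitals with the flanking coding bases. For Adcy3 the bases follow a copy of the same triplet, so the copies cannot be told apart.
Adcy8-201: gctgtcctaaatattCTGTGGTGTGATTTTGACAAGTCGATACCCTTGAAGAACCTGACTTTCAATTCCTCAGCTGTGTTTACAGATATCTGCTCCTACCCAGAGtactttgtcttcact
Adcy3-201: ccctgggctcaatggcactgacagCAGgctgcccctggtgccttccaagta
Adcy8-201 held 59.1% of Adcy8 TPM in replicate 1 and 76.9% in replicate 2, Adcy8-202 18.2% and 10.7%, and the retained-intron transcript Adcy8-203 22.7% and 12.4%. The share of Adcy8-202 is uncertain, since its counts of 145 and 97.8 had posterior SDs of 43.6% and 53.7%. For Adcy3, the 3435-base coding sequence without the triplet held 52.2% ± 1.42 of the TPM and the 3438-base one 36.3% ± 1.44, and the kallisto-layout table gave 47.1% ± 5.75 and 34.3% ± 0.170. The form without the triplet was the higher in both libraries and both tables. The split is uncertain, since the counts of the transcripts joined in these shares had large posterior SDs in the RSEM-layout table. They ran from 14.2% of the count for Adcy3-207 in replicate 2 to 58.1% for Adcy3-204 in replicate 1. The SD between libraries does not include this uncertainty. Adcy3 was the gene with no transcript over 50%: Adcy3-207 led at 31.8% in the RSEM-layout table and Adcy3-202 at 29.3% in the kallisto-layout table.

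Adcy9 had forms with a longer and a shorter coding sequence. Adcy9-201 and Adcy9-202 share a 4062-base coding sequence, and the 3351 bases of Adcy9-203 lie whole within it, from base 712 to its end. The longer held 60.3% ± 2.78 of Adcy9 TPM and the shorter 39.7% ± 2.78 in the RSEM-layout table, against 54.1% ± 2.67 and 45.9% ± 2.67 in the kallisto-layout table. Within the longer form the tables chose different transcripts, Adcy9-202 at 60.3% in the first and Adcy9-201 at 47.4% in the second. Gm6142, a processed pseudogene on the same strand within the span of Adcy9, had 2.16 and 1.54 TPM, and the sources used here do not state if the counting used strand. Other overlapping genes with at least 1 TPM in both libraries were Cenpo on the opposite strand of Adcy3 (1.73 and 1.99 TPM) and the antisense gene Gm35161 at Adcy2 (2.27 and 1.55 TPM). Under 1 TPM on the same strand were Gm48593 at Adcy2 (0.830 and 0.780), Gm49702 at Adcy5 (0.730 and 0.520) and Gm15672 at Prkar1b (0.670 and 0.740).

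Between the 2 libraries, 6 of the 10 genes differed beyond counting noise, all of them higher in replicate 2, by an exact binomial test with Benjamini-Hochberg adjustment over 18322 genes at a threshold of 0.05. Over all genes tested, 22.5% passed, 11.9% higher in replicate 2 and 10.7% higher in replicate 1. With a minimum mean count of 50, 4010 of 14212 genes passed, and the lowest mean count of the 10 was 806, for Adcy8. The test compares these libraries and not conditions. The sizes were small: the absolute log2 ratio had a median of 0.12 over the 10 genes and 0.14 over all genes tested. The signed median was 0.12 for the 10 and 0.00 for all genes. With an assumed biological coefficient of variation of 0.1, edgeR's exact test called 174 of all genes (0.950%) and 0 of the 10, of which 0 had an unadjusted p under 0.05, against 8 by the binomial test.

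All 4 PKA members were among the 6. Whether a gene passes depends on its counts as well as on its ratio. Prkaca passed at a log2 ratio of 0.09 with a mean count of 5214, and Adcy8 did not at 0.12 with 806. The numbers of PKA and cyclase members that passed are therefore not a like comparison. Prkar2b showed the largest ratio, with 1025 counts in replicate 1 and 1438 in replicate 2 (log2 ratio 0.34, 95% counting interval 0.23 to 0.46, exact binomial test, adjusted p = 1.1e-07). Prkar1b had 7951 and 9881 counts (0.17, 0.13 to 0.21, exact binomial test, adjusted p = 2.5e-13). Prkacb at 0.11 (0.07 to 0.16) and Prkaca at 0.09 (0.03 to 0.14) were smaller, with adjusted p-values from the same exact test of 3.0e-05 and 0.012. Catalytic and regulatory members were thus both higher in replicate 2. The summed TPM ratio of catalytic to regulatory genes was 0.512 and 0.515 in the gene table. In the kallisto-layout table it was 0.559 in replicate 1 and 0.588 in replicate 2.

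Of the 6 cyclase members, 2 passed. Adcy1 had a log2 ratio of 0.20 (0.17 to 0.22, exact binomial test, adjusted p = 1.8e-48) and Adcy3 of 0.16 (0.07 to 0.25, adjusted p = 0.0052). Adcy8 at 0.12 (-0.02 to 0.26), Adcy5 at 0.07 (0.01 to 0.13), Adcy9 at -0.02 (-0.09 to 0.05) and Adcy2 at -0.09 (-0.16 to -0.01) did not pass after adjustment. Adcy5 passed with scaling to total gene counts, with DESeq2 size factors, with kallisto-layout counts and with spike-in scaling. Scaling to the spike-ins shifted every log2 ratio by 0.11, raised the share of calls that were higher in replicate 2 from 52.7% to 84.7%, called 9 of the 10 genes and turned Adcy9 to 0.09 and Adcy2 to 0.03. The order of the 10 ratios cannot change with the scaling, which adds the same amount to each.

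**Figure D4:**
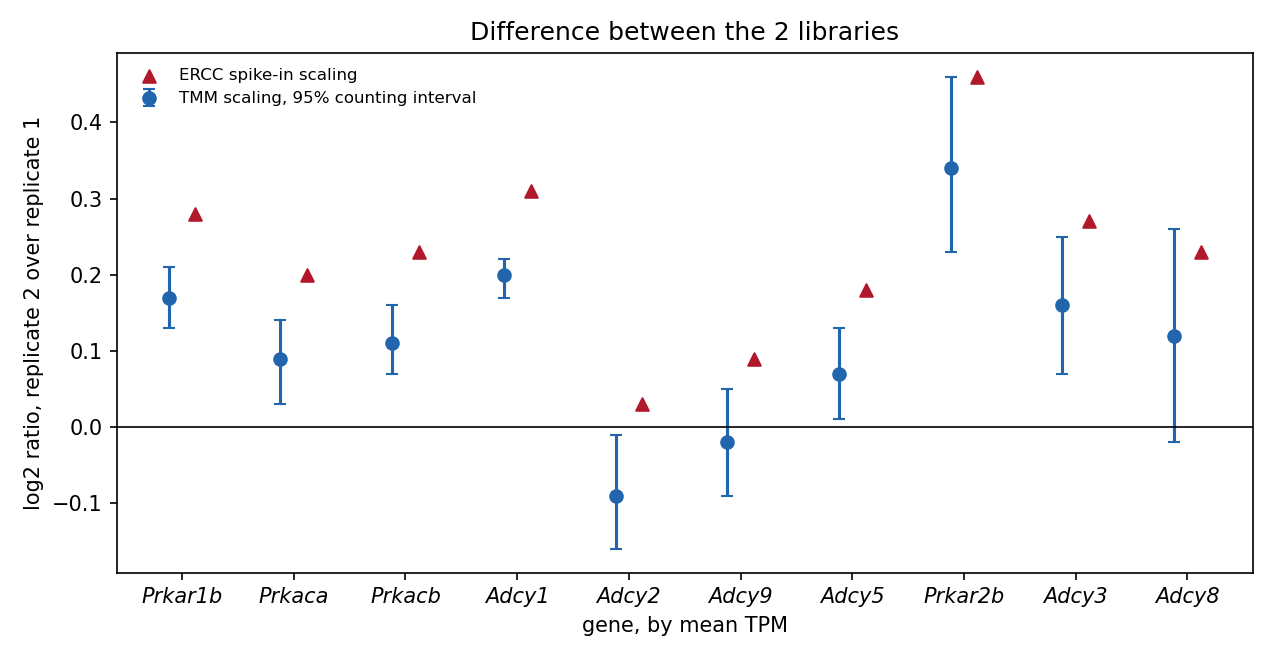
Log2 ratio of replicate 2 to replicate 1 for the 10 genes with TMM-scaled counts (blue, with 95% counting intervals) and with spike-in scaling (red triangles). Prkar2b is highest at 0.34 and Adcy2 lowest at -0.09 with TMM scaling, and the triangles lie 0.11 higher, to rounding.

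Markers of CA1, CA3 and dentate granule neurons, 3 genes each, were all detected in both libraries, as the hippocampus label would have it. Several cell type markers differed between the libraries by the exact binomial test. Of all genes tested, 11.9% passed as higher and 10.7% as lower in replicate 2. Myelinating oligodendrocyte markers were lower in replicate 2 in 8 of 8 genes, with summed TPM of 1771 and 943 in replicates 1 and 2, and thalamic markers in 4 of 4 (49.1 and 27.7). Of the choroid plexus markers, 3 of 4 were lower (89.8 and 47.9), among them Ttr with 85.9 and 45.8 TPM. CA1 markers were higher in replicate 2 in 3 of 3 genes (159 and 192) and dentate granule neuron markers in 3 of 3 (84.4 and 113). General excitatory neuron markers were higher in 2 of 4 (1474 and 1655) and interneuron markers in 2 of 4 (308 and 397). The 2 interneuron genes were Sst, with 138 and 204 TPM and a log2 ratio of 0.50, and Gad1 at 0.08. Gad2 at 0.05 and Slc32a1 at -0.03 did not pass. Microglia markers were higher in 2 of 5 (110 and 125) and oligodendrocyte precursor markers in 1 of 3 (64.4 and 71.8). Of the CA3 markers 2 of 3 were lower (95.6 and 88.7), and astrocyte and endothelial markers went both ways, with sums of 1692 and 1691 and of 67.8 and 70.5. The part of these differences in the ratios of the cyclase and PKA genes was not tested.

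Other genes of the pathway, from lists chosen with earlier results of these data known, were read with the same exact binomial test. Over 9 lists, 64 of 69 genes had enough counts, and 21 passed, 13 higher and 8 lower in replicate 2, beside 22.5% of all genes tested. By direction, 11.9% of all genes tested passed as higher and 10.7% as lower in replicate 2. The median log2 ratio over the 64 was 0.01. Upstream of the cyclases, 6 of 7 G protein alpha subunit genes were higher in replicate 2, among them Gnas, which encodes the stimulatory Gs alpha (824 ± 29.2 TPM, log2 ratio 0.05), Gnao1 (357 ± 33.1 TPM, 0.09) and the inhibitory Gnai2 (101 ± 15.1 TPM, 0.22). The 7 summed to 1414 and 1548 TPM. Their ratios were small, as were those of the members.

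Genes that limit PKA were also expressed. The counts of passing genes here stand beside 11.9% of all genes passing as higher and 10.7% as lower in replicate 2. Of 3 genes for PKA inhibitor peptides, which bind free catalytic subunits, Pkia (131 ± 21.1 TPM, log2 ratio 0.23) and Pkig (34.7 ± 6.55 TPM, 0.34) were higher in replicate 2, and Pkib (3.81 ± 0.905 TPM) did not pass. The inhibitors' summed TPM was 0.725 times that of the catalytic genes in replicate 1 and 0.820 times in replicate 2. Of the 3 other PKA genes listed, Prkar1a passed (0.07) and Prkar2a (0.09) and Prkx (6.02 ± 0.410 TPM) did not. Of 16 phosphodiesterase genes, whose enzymes break down cAMP, 2 were lower in replicate 2, Pde4d (-0.13) and Pde4b (-0.18, named after its value was seen). Pde2a (107 ± 3.75 TPM) and Pde1a (58.9 ± 1.31 TPM) were the most abundant of these, and Pde4c had 0.335 ± 0.0636 TPM.

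Anchoring proteins, which hold PKA at its targets, moved in both directions. Of 15 tested genes 3 were higher in replicate 2, Wasf1 (172 ± 13.3 TPM, log2 ratio 0.11), Sphkap (83.7 ± 9.93 TPM, 0.16) and, named after its value was seen, Akap7 (0.22). Another 3 were lower, all named after their values were seen: Akap8l (-0.34), Akap13 (-0.30) and Akap8 (-0.20). For comparison, 11.9% of all genes tested passed as higher and 10.7% as lower. Akap11 had 79.0 ± 2.05 TPM and did not pass, and Akap3, Akap4 and Akap14 were under 0.1 TPM. Of the anchoring genes listed, Akap5, which places PKA at excitatory synapses, had 25.8 ± 0.615 TPM and a log2 ratio of -0.04, and is named for that role.

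Downstream, 3 of 4 genes for other cAMP-binding effectors or their relatives were lower in replicate 2, Rapgef4 (87.5 ± 5.23 TPM, log2 ratio -0.10), Rapgef2 (52.8 ± 2.86 TPM, -0.15) and Rapgef3 (14.9 ± 2.67 TPM, -0.24). Popdc2 had 0.125 ± 0.0778 TPM. Of all genes tested, 10.7% passed as lower in replicate 2 and 22.5% passed in either direction. None of the 8 genes of CREB and its coactivators passed the exact binomial test, with a median log2 ratio of 0.00. The most abundant of these were Crtc1 (53.9 ± 0.651 TPM), Crebbp (35.6 ± 0.849 TPM) and Ep300 (26.2 ± 2.26 TPM). Of 5 PKA-regulated phosphatase inhibitors and substrates, Ppp1r1a was higher in replicate 2 (59.1 ± 11.6 TPM, 0.36, named after its value was seen), and Arpp21 (129 ± 0.389 TPM), Ensa (127 ± 2.85 TPM) and Arpp19 (74.4 ± 8.90 TPM) did not pass.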

How the data were processed

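Total RNA of 2 libraries from 1 group was measured. The gene tables deposited by the authors hold expected counts (estimated reads per gene, not normalised), TPM over all entries with spike-ins, and the posterior SD of the count, per the file headers. The RSEM-layout transcript tables also give, per the file headers, each transcript's share of its gene's TPM in percent. The kallisto-layout transcript tables hold estimated counts and TPM, as deposited, and were normalised separately. The tables use mm10 (per the labels) and GENCODE M21 (per the deposited notes). For the aligner and the quantifier settings, the sources are silent: not given in the sources used here. Entries that name no gene held 2.67e-05% and 9.40e-06% of the counts and were left out.

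Expected counts were rounded to whole numbers. Libraries were scaled with TMM, the trimmed mean of M-values ( edgeR 4.0.16, limma 3.58.1, R 4.3.3) over genes with a mean count of at least 10, and the counts of each such gene entered a two-sided exact binomial test, with Benjamini-Hochberg adjustment over all of them. Log2 ratios carry a prior count of 0.5. Intervals are Clopper-Pearson 95% intervals of the count share, and they and the limit of 3 counts reflect counting error alone, as reads can be copies of 1 molecule. A p-value here measures how far the split of a gene's counts between these libraries departs from counting noise. It does not measure a spread among replicates. Pairs of genes were compared by TPM, and no sign-flip test was run, since with 2 libraries its smallest two-sided exact p is 0.5. Coding sequences were rebuilt from the GENCODE M21 annotation and transcripts with Python 3.11.15 and pandas 2.3.3. Alternatives changed the scaling, test (edgeR, DESeq2 1.42.0 size factors), count minimum, table and length correction.

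Members, lists and pairs were chosen with earlier results of these data known. The text names the 10 members, the 3 genes of each pathway list with the highest mean TPM, list genes under 1 TPM, genes past the test with an absolute log2 ratio over 0.5, and up to 3 leading transcripts per member. Some names fall outside this rule. They are marked in the text as picked after seeing the values or for a role, or belong to the cell type marker lists. The rest are transcripts and overlapping genes needed to explain a value.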

Additional observations from a re-analysis of the deposited data

How the results depend on the processing

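Precision rests on 2 libraries of 1 group. No paired analysis was possible because there is a single group. The binomial test called 4128 genes, against 6515 with spike-in scaling and 174 with the exact test of edgeR (assumed coefficient of variation 0.1), which called 0 of the 10 members. Spike-in scaling turned Adcy9 to a log2 ratio of 0.09. The log2 catalytic to regulatory ratio was -0.80 from kallisto-layout TPM, -1.01 from counts scaled to the library without length, and -1.05 and -0.98 from complete coding transcripts in the RSEM-layout and kallisto-layout tables, the last 2 chosen after seeing the data. Without length correction the Adcy1 share was 62.6%, 6 neighbours in the order of levels passed, and the pairs Prkaca to Prkacb and Prkar2b to Prkar2a turned to -0.51 and -0.55, Prkar1b to Prkar1a passed at -0.60, and 9 of 10 pairs passed. Complete coding transcripts in the kallisto-layout table left 2 neighbours and 7 pairs. In single libraries, where no SD or shared sign can be checked, the Adcy1 share was 38.8% to 42.2%, 3 to 4 neighbours and 6 pairs exceeded a log2 ratio of 0.5, 10 members were detected, 9 had a transcript over 50%, and the log2 catalytic to regulatory ratio was -0.96 in each. The causes of the changes were not tested, other than the omitted length correction and the transcripts left out.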
